A study of Saccharomyces cerevisiae with 27 samples.

Results

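PGM1 and PGM2, the phosphoglucomutase genes of the yeast Saccharomyces cerevisiae, were followed across 27 messenger RNA libraries made from 3 strains on 3 carbon sources. They are the 2 rows, of 5995 genes in each deposited table, whose gene identifier carries the symbol PGM1 (853732, systematic name YKL127W) or PGM2 (855131, systematic name YMR105C). They were chosen by name and not by their values. Each of the 9 combinations of strain and carbon source has 3 libraries, which the labels describe as separate colonies. All strains share the genotype his3Δ1 leu2Δ0 met15Δ0 ura3Δ0, so every control carries these deletions too. BY4741 is the laboratory parent, a haploid, and holds no plasmid. LCY001 holds the centromeric plasmid CEN-HIS3, which restores the histidine gene HIS3. LCY002 holds CEN-HIS3 with an array of 40 genes, and PGM1 and PGM2 stand side by side in the labelled order of that array, between GAL2 and PGI1. Cultures were started in medium lacking histidine, moved to glucose, galactose or ethanol/glycerol, and collected during growth. The libraries titled GE were taken as the ethanol/glycerol cultures, the carbon source of the protocol that the titles Glc and Gal leave over. BY4741 has no plasmid HIS3, and the sources used here do not say whether the last medium held histidine. LCY002 can therefore carry each phosphoglucomutase gene on its chromosome and on the plasmid, and reads of both copies fall on 1 gene count. Plasmid copy number was not measured, and BY4741, LCY001 and LCY002 are single strains.

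Phosphoglucomutase interconverts glucose 1-phosphate and glucose 6-phosphate. In galactose medium it is the last step that brings galactose carbon into glycolysis, after the Leloir enzymes GAL1, GAL7 and GAL10 have made glucose 1-phosphate. In glucose medium it mostly runs the other way and supplies glucose 1-phosphate to UGP1, whose product UDP-glucose is used for glycogen, trehalose and cell wall glucan. PGM2, also called GAL5, encodes the major isozyme in S. cerevisiae and PGM1 the minor one.

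PGM1 occupies chrXI:203541-205253 on the plus strand and PGM2 chrXIII:475897-477606 on the minus strand of build R64. Both consist of 1 coding stretch, of 1713 bases in PGM1 and 1710 bases in PGM2, and 0 annotated genes overlap either of them. In a global alignment the coding sequences were identical at 1244 of 1715 columns, or 72.5%. PGM3, also named PRM15, a phosphoribomutase of the same enzyme family, was 48.6% identical to PGM1. The longest stretch that PGM1 and PGM2 share without a difference is 23 bases, at positions 718 to 740 of PGM1 and 715 to 737 of PGM2. It is shown in capitals within its flanks because it marks how far reads of the isozymes can be told apart (chrXI:204243-204295, plus strand, and chrXIII:476855-476907, minus strand, both 5′ to 3′).
PGM1: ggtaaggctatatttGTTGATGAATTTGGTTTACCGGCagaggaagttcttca
PGM2: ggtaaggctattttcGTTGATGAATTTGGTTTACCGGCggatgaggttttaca
All 54 expected counts of the pair, 27 for each gene, were whole numbers within 1e-08, as were 94.1% of the expected counts of all genes.

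The 2 promoters have different letters in the stretch from 450 to 151 bases before the start codon, given here from the R64 sequence because PGM1 and PGM2 moved differently between strains and media. PGM1 is chrXI:203091-203390 on the plus strand and PGM2 is chrXIII:477757-478056 on the minus strand, both 5′ to 3′, and capitals mark matches to the motifs named next.
PGM1: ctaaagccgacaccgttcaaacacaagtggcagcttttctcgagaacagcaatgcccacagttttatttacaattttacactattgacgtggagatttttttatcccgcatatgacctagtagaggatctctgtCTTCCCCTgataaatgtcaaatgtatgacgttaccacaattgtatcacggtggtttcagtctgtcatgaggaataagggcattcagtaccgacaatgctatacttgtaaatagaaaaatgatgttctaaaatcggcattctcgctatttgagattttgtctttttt
PGM2: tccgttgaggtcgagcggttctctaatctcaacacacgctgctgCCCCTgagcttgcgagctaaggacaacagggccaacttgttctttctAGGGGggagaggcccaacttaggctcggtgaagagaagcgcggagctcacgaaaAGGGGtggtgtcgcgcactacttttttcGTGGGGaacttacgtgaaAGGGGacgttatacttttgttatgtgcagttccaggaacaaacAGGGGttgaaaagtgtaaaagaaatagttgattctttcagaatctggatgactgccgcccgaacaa
Motifs were searched on both strands in the 450 bases before the start codon of 6000 genes. The stress response element, read by Msn2 and Msn4 and spelled AGGGG or CCCCT, matched PGM2 at 5 places, 406, 359, 305, 259 and 216 bases before the start codon. It matched PGM1 at 1 place, 313 bases before the start. At least 1 match was present in 32.0% of all promoters and at least 5 in 0.15%, or 9 promoters. The cut of 5 was taken from the PGM2 count itself, so this share is a description and not a test. The core of the glucose repressor Mig1 (GCGGGG, or the variant GTGGGG, or with a first C the words CCGGGG and further CTGGGG, each with its reverse complement) matched PGM2 once, 277 bases before the start, and PGM1 at 0 places, against 19.8% of promoters. The core of the glycolytic activator Gcr1 (CTTCC or GGAAG) matched PGM1 once, 316 bases before the start and overlapping its CCCCT, and PGM2 at 0 places, against 60.9% of promoters. The full Gal4 site, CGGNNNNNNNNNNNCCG, has no match in these letters of either gene and was found in 2.6% of promoters. TATAAA or TTTATA, found in 58.3% of promoters, lay outside the printed stretch, at 134 and 77 bases before the start of PGM1 and at 141 before that of PGM2. The 450-base window was chosen after a shorter one of 250 bases had been read. The stress response matches of PGM2 at 406, 359, 305 and 259 bases, and that of PGM1 at 313, lie beyond 250 bases. These matches describe letters only.

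Library totals ran from 14484847 to 16219263 expected counts, so 3 counts in the smallest library equal 0.207 CPM, far below every value of the pair. CPM means counts per 1000000 library counts after TMM scaling, which places libraries on a common scale. LEU2, URA3 and MET17 (MET15) were at 0 counts in all groups, as the shared deletions imply. HIS3 averaged 37.6 ± 2.15 CPM (SD, n = 3) in BY4741, 1496 ± 26.3 in LCY001 and 507 ± 18.9 in LCY002 in glucose. Of the a-cell markers, the pheromone receptor STE2 averaged 207 to 1463 CPM by group and the pheromone genes MFA1 and MFA2 were listed at 0 in all groups, while the alpha-cell receptor STE3 averaged 9.06 to 29.2 CPM.

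PGM1 had 3 levels in the control strains, 1 for each carbon source, and the control strains lay on top of each other at each. In glucose the BY4741 libraries held 199.0, 197.5 and 200.5 CPM and the LCY001 libraries 200.2, 197.1 and 201.8 CPM. In galactose BY4741 held 142.0, 151.8 and 141.7 CPM and LCY001 150.0, 136.4 and 141.4 CPM. In ethanol/glycerol BY4741 held 71.3, 70.7 and 71.4 CPM and LCY001 70.6, 74.1 and 71.2 CPM. The ranges of both control strains overlapped on every carbon source, while the carbon sources did not overlap with each other. LCY002 was above both controls on every carbon source, with 402.8, 409.1 and 438.5 CPM in glucose. It held 269.7, 281.8 and 288.5 CPM in galactose and 166.1, 164.1 and 170.6 CPM in ethanol/glycerol. From lowest to highest, the group means ran BY4741 and LCY001 in ethanol/glycerol, LCY001 and BY4741 in galactose, LCY002 in ethanol/glycerol, BY4741 and LCY001 in glucose, LCY002 in galactose and LCY002 in glucose. The 2 control strains overlapped with each other on each carbon source, and all other neighbours in this order were separate. The highest group mean was 5.86-fold the lowest, and libraries of a group differed by at most 1.10-fold.

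PGM2 had no such common level in the controls. In glucose it stood at 192.8, 189.8 and 239.4 CPM in BY4741 and at 651.3, 536.0 and 605.4 CPM in LCY001, and LCY002 lay between them at 384.7, 356.9 and 465.7 CPM. In galactose the order turned, with 929.2, 977.1 and 948.5 CPM in BY4741 against 232.3, 391.8 and 223.9 CPM in LCY001. LCY002 held 1224.1, 1118.9 and 952.4 CPM there. LCY001 libraries were thus the highest of the 3 strains in glucose and the lowest in galactose, with no overlap with either other strain in each medium. In ethanol/glycerol BY4741 held 250.7, 203.5 and 223.6 CPM, LCY001 198.6, 196.6 and 193.7 CPM, and LCY002 570.5, 574.1 and 630.4 CPM. LCY002 stood well above both controls there, and LCY001 lay just below BY4741, with 198.6 CPM as its highest and 203.5 CPM as the lowest BY4741 library.

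From lowest to highest, the PGM2 group means ran LCY001 in ethanol/glycerol, BY4741 in glucose, BY4741 in ethanol/glycerol, LCY001 in galactose, LCY002 in glucose, LCY002 in ethanol/glycerol, LCY001 in glucose, BY4741 in galactose and LCY002 in galactose. Neighbours in that order were separate at only 2 steps, from LCY002 in glucose to LCY002 in ethanol/glycerol and from LCY001 in glucose to BY4741 in galactose. The highest mean was 5.60-fold the lowest, a span like that of PGM1. Libraries of a group differed by up to 1.75-fold, in LCY001 in galactose, where replicate 2 was the high library. The coefficient of variation within groups was 0.506 to 4.83% for PGM1 and 1.26 to 33.5% for PGM2.

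**Figure D1:**
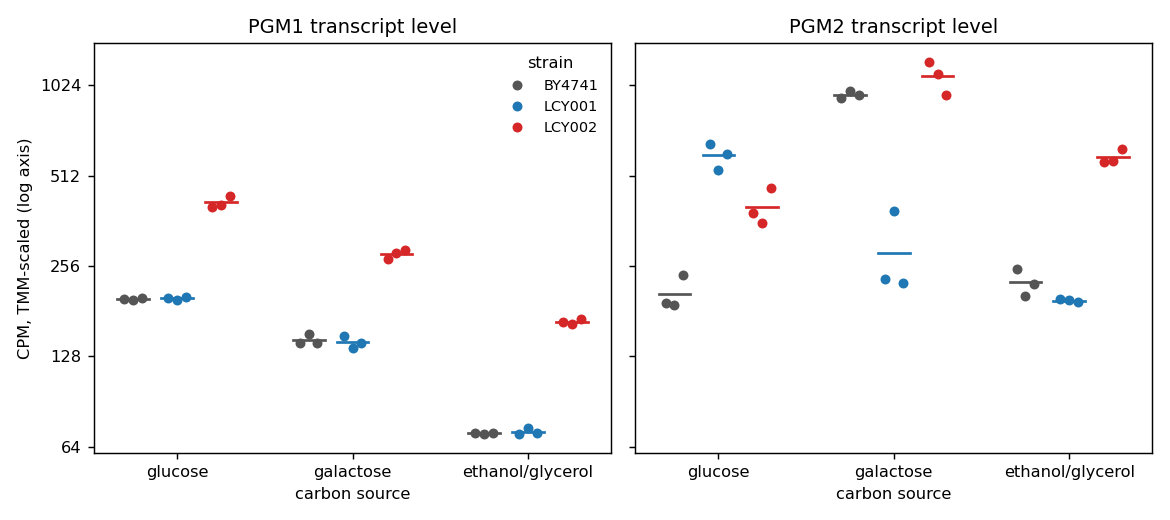
TMM-scaled CPM of PGM1 (left) and PGM2 (right) on a log axis in each of the 27 libraries, by carbon source and strain; points are libraries and short bars group means (n = 3). PGM1 lies at 1 level for BY4741 and LCY001 on each carbon source, with LCY002 above, while PGM2 of LCY001 is the highest strain in glucose (mean 598 CPM) and the lowest in galactose (mean 283 CPM).

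Placed among all genes by CPM per kilobase of transcript, PGM1 ranged from above 41.6% of genes in BY4741 in ethanol/glycerol to above 89.5% in LCY002 in glucose. PGM2 ranged from above 76.0% in LCY001 in ethanol/glycerol to above 95.8% in LCY002 in galactose. The related mutase PGM3 stayed at 37.0 to 46.3% over the 9 groups.

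The first comparison asked how each isozyme differed between carbon sources within a strain, with the count model of edgeR fitted to all 27 libraries and p-values adjusted over all genes tested. PGM1 fell in galactose and fell further in ethanol/glycerol in all 3 strains. In BY4741 its mean was 1.37-fold lower in galactose than in glucose (log2 fold change -0.46 ± 0.04 SE, edgeR adjusted p = 1.86e-10) and 2.80-fold lower in ethanol/glycerol (-1.48 ± 0.04, adjusted p = 1.01e-21). The same log2 fold changes were -0.49 and -1.47 in LCY001 and -0.57 and -1.32 in LCY002, all called at an adjusted p below 0.05. Ethanol/glycerol was also below galactose, by -1.03, -0.99 and -0.75 in BY4741, LCY001 and LCY002.

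PGM2 changed in a direction that depended on the strain. In BY4741 galactose raised it 4.59-fold over glucose (log2 fold change 2.2 ± 0.17, adjusted p = 7.46e-10), with no overlap between libraries. LCY002 showed a rise of 1.45 ± 0.16 on the log2 scale (adjusted p = 3.24e-07), and LCY001 a change of -1.08 ± 0.16, a 2.11-fold lower mean in galactose (adjusted p = 1.19e-05). Ethanol/glycerol against glucose gave 0.12 in BY4741, which was not called (95% interval -0.22 to 0.47, adjusted p = 0.497), -1.61 in LCY001 (adjusted p = 2.92e-08) and 0.56 in LCY002 (adjusted p = 0.00371). Against galactose, PGM2 in ethanol/glycerol fell by 2.07 in BY4741 (adjusted p = 9.68e-10) and by 0.89 in LCY002 (adjusted p = 4.67e-05). The value of -0.53 in LCY001 (adjusted p = 0.00782) rests on 1 library, since without replicate 2 of LCY001 in galactose it was -0.22 with an adjusted p of 0.108. It was also lost when only the LCY001 libraries compared entered the fit, at -0.51 with an adjusted p of 0.144.

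These calls stand against a high background. Of the 5692 genes tested, galactose against glucose called 65.5% in BY4741, 59.3% in LCY001 and 60.1% in LCY002. Ethanol/glycerol against glucose called 81.4%, 78.1% and 83.5%, and ethanol/glycerol against galactose 73.1%, 71.6% and 77%. That a gene was called between carbon sources is thus common in these libraries, and the sizes and directions carry the description.

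LCY001 against BY4741 compares strains that differ by the HIS3 plasmid without the array. PGM1 was not called on any carbon source, and its log2 fold change was 0.00 in glucose (95% interval -0.08 to 0.09, edgeR adjusted p = 0.927). It was 0.02 in ethanol/glycerol (-0.07 to 0.11, adjusted p = 0.85) and -0.03 in galactose (-0.11 to 0.06, adjusted p = 0.643). Under TMM scaling, the intervals exclude a change of PGM1 beyond 0.11 on the log2 scale in either direction. They do not cover the choice of scaling.

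PGM2 rose 2.88-fold in LCY001 in glucose, from 207 ± 27.8 CPM (SD, n = 3) in BY4741 to 598 ± 58.1 CPM. Its log2 fold change was 1.53 ± 0.17 (SE), with an adjusted p of 2.92e-07. In galactose it was 3.37-fold lower in LCY001, at 283 ± 94.6 CPM against 952 ± 24.1 CPM in BY4741 (log2 fold change -1.75 ± 0.17, adjusted p = 8.89e-08). The difference was -0.20 in ethanol/glycerol (95% interval -0.55 to 0.14, adjusted p = 0.469) and was not called. 1 of the 2 genes was therefore called in glucose and in galactose and 0 in ethanol/glycerol, while the test called 55.4%, 38.9% and 11.5% of all genes.

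The test of the difference between media, the galactose effect minus the glucose effect, gave -3.28 ± 0.23 for PGM2 (adjusted p = 1.18e-09) and -0.03 for PGM1 (adjusted p = 0.681), where 50.9% of genes were called. For ethanol/glycerol minus glucose the values were -1.73 ± 0.23 for PGM2 (adjusted p = 7.91e-06) and 0.01 for PGM1 (adjusted p = 0.887), where 46% of genes were called. The effect of the plasmid strain on PGM2 thus differed between media by this test, and none was detected for PGM1.

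By the labels, LCY002 against LCY001 adds the array, with its copies of PGM1 and PGM2, to the same plasmid backbone. The backbone gene HIS3 was lower in LCY002 on each carbon source, at 507 against 1496 CPM in glucose. It was at 438 against 1171 CPM in galactose and 653 against 1052 CPM in ethanol/glycerol, and the reason was not tested. LCY001 libraries also serve in the preceding comparison, so the contrasts are not independent. PGM1 was 2.09-fold higher in LCY002 in glucose, 1.96-fold in galactose and 2.32-fold in ethanol/glycerol. The log2 fold changes were 1.06 ± 0.04 (adjusted p = 7.1e-18), 0.97 ± 0.04 (adjusted p = 6.47e-17) and 1.21 ± 0.04 (adjusted p = 2.03e-18). The 95% intervals were 0.98 to 1.14 in glucose and 0.89 to 1.05 in galactose, both of which include a doubling, and 1.13 to 1.30 in ethanol/glycerol, which lies above it.

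In CPM, the PGM1 transcript of LCY002 above LCY001 was 217 ± 11.1 (SE) in glucose, 95 ± 2.2 in ethanol/glycerol and 137 ± 6.81 with galactose. This surplus fell over the carbon sources in the order of the LCY001 level itself, which was 199.7 CPM in glucose, 142.6 in galactose and 72.0 with ethanol/glycerol. That order follows from the folds given above and is not a separate result. The strain effect was larger in ethanol/glycerol than in glucose by 0.15 ± 0.06 (adjusted p = 0.0225), and the galactose effect differed from that in glucose by -0.09 (adjusted p = 0.195). The first of these calls was lost in 4 of 12 fits that left out 1 library, namely LCY001 replicate 1 or LCY002 replicate 3 in ethanol/glycerol (0.14 each) and LCY002 replicate 1 (0.13) or 2 (0.14) in glucose.

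PGM2 in LCY002 differed from a doubling of the LCY001 level on each carbon source. In glucose it was lower in LCY002, at 402 ± 56.5 CPM against 598 ± 58.1 CPM (log2 fold change -0.57 ± 0.16, adjusted p = 0.0059), although LCY002 carries an added copy by its labels. In galactose it was 3.89-fold higher, at 1098 ± 137 CPM (1.96 ± 0.17, adjusted p = 1.26e-08), and in ethanol/glycerol 3.01-fold higher, at 592 ± 33.6 against 196 ± 2.46 CPM (1.59 ± 0.17, adjusted p = 1.27e-07). The 95% intervals were -0.91 to -0.23, 1.61 to 2.31 and 1.24 to 1.94, and a doubling lies outside each of them. The galactose effect exceeded the glucose effect by 2.53 ± 0.23 (adjusted p = 3.43e-08) and the ethanol/glycerol effect exceeded it by 2.16 (adjusted p = 1.32e-07). Both genes were called on all 3 carbon sources, where 53.7% of genes were called in glucose, 59.8% in ethanol/glycerol and 38.2% with galactose. For the differences between media 47.3% and 60.5% of genes were called.

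Against BY4741, the control without a plasmid, PGM1 of LCY002 gave nearly the same folds of 2.09, 1.93 and 2.35 in glucose, galactose and ethanol/glycerol. For PGM2 the picture changed with the control. It was 1.94-fold higher than BY4741 in glucose (log2 fold change 0.96 ± 0.17, 95% interval 0.61 to 1.30, adjusted p = 0.000128), an interval that includes a doubling. In galactose it was 1.15-fold BY4741, which was not called (0.21, interval -0.13 to 0.54, adjusted p = 0.332), and replicate 3 of LCY002, at 952.4 CPM, lay within the BY4741 range. In ethanol/glycerol it was 2.62-fold higher (1.39, interval 1.04 to 1.73, adjusted p = 5.77e-07). The PGM2 surplus over BY4741 was 195 ± 36.4, 147 ± 80.3 and 366 ± 23.7 CPM.

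This comparison called 38.4% of genes in glucose, 59.7% in ethanol/glycerol and 37.8% with galactose. The PGM2 effect in galactose minus that in glucose was -0.75 ± 0.23 (adjusted p = 0.04), a contrast in which 11.2% of genes were called, and this call was lost in 9 of the 12 fits that left out 1 library. It held only without BY4741 replicate 3 in glucose (-0.87), LCY002 replicate 2 in glucose (-0.83) or LCY002 replicate 1 in galactose (-0.83). The ethanol/glycerol effect exceeded the glucose effect by 0.43 for PGM2 (adjusted p = 0.147, not called) and by 0.16 for PGM1 (adjusted p = 0.0231), where 39.5% were called. The PGM1 call was lost in 3 of 12 such fits, without LCY002 replicate 3 in ethanol/glycerol (0.15) or LCY002 replicate 1 (0.14) or 2 (0.15) in glucose. For PGM1 the galactose effect differed from glucose by -0.12 (adjusted p = 0.183, not called).

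**Figure D2:**
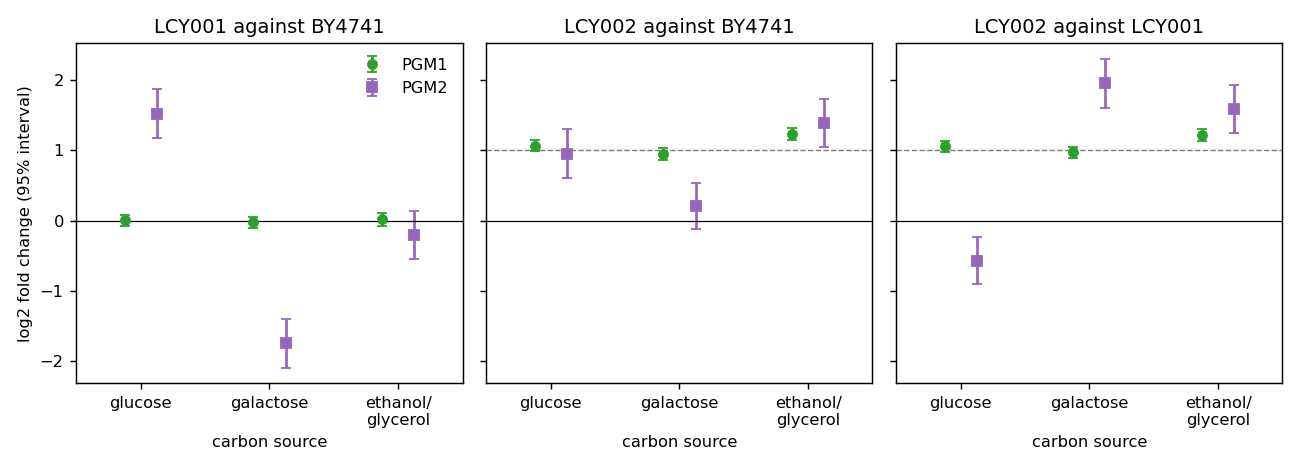
Log2 fold changes of PGM1 (circles) and PGM2 (squares) between strains on each carbon source, with 95% intervals from edgeR; the dashed grey line marks a doubling. PGM1 sits at 0 in LCY001 against BY4741 and near 1 in both LCY002 comparisons, while PGM2 swings from 1.53 to -1.75 in LCY001 against BY4741.

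The ratio of PGM2 to PGM1, per kilobase within a library, compares the isozymes free of the library scale. In glucose it averaged 1.04 ± 0.133 (SD, n = 3) in BY4741, 3.00 ± 0.268 in LCY001 and 0.965 ± 0.0953 in LCY002. In galactose it averaged 6.57 ± 0.130, 2.00 ± 0.756 and 3.94 ± 0.621 in the same order of strains. In ethanol/glycerol it averaged 3.18 ± 0.321, 2.73 ± 0.0803 and 3.55 ± 0.136. PGM2 was thus close to parity with PGM1 in glucose in BY4741 and LCY002, and the major transcript elsewhere. It exceeded PGM1 in 23 of 27 libraries, and the 4 others were glucose libraries, 2 of BY4741 and 2 of LCY002. PGM2 made up 50.9%, 74.9% and 49.0% of the summed level in glucose in BY4741, LCY001 and LCY002. In ethanol/glycerol its share was 76.0%, 73.2% and 78.0%, and in galactose 86.8%, 65.4% and 79.6%.

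Exact two-sided tests over libraries were adjusted over 15 tests of the ratio and the sum. Media and strains were compared with libraries permuted within strata. PGM2 was compared with PGM1 by flipping the sign of the log2 ratio over the 9 libraries of a medium. Those flips pool the 3 strains, whose ratios differ. Within a carbon source, PGM2 exceeded PGM1 on average by 1.87 on the log2 scale in galactose and by 1.65 in ethanol/glycerol (exact p = 0.00391 each, adjusted p = 0.00964, the smallest p that 9 libraries allow), and in glucose by 0.53 (exact p = 0.129). With libraries permuted within strains, the log2 ratio was 1.35 higher in galactose than in glucose (exact p = 0.00725, adjusted p = 0.0136) and 1.12 higher in ethanol/glycerol than in glucose (exact p = 0.0045, adjusted p = 0.00964). The strains differed in sign, since the galactose difference was 2.66 in BY4741, 2.02 in LCY002 and -0.64 in LCY001. For ethanol/glycerol the differences were 1.61, 1.88 and -0.13. Between strains, permuted within media, no difference of the ratio was detected (LCY002 against LCY001 -0.08, exact p = 0.849; LCY001 against BY4741 -0.15, exact p = 0.665; LCY002 against BY4741 -0.23, exact p = 0.0705). The media again pulled apart, with LCY001 against BY4741 at 1.53 in glucose, -0.21 in ethanol/glycerol and -1.77 with galactose. A single comparison of 3 libraries with 3 cannot give an exact p below 0.1, so the strata are values only.

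**Figure D3:**
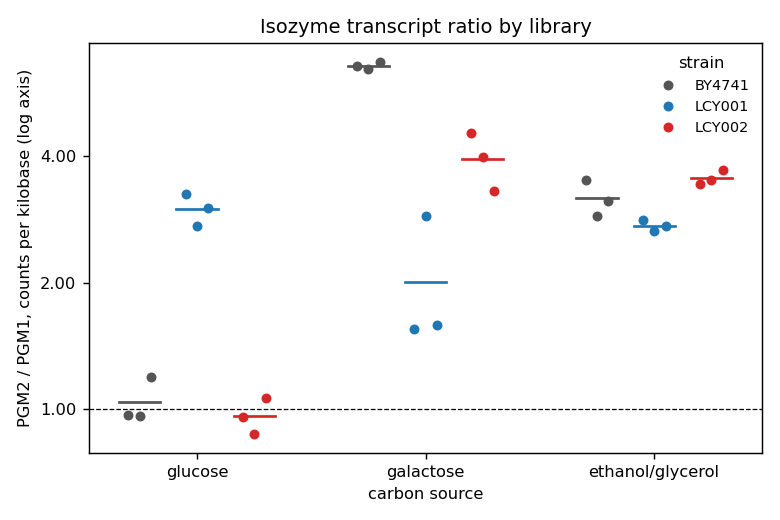
PGM2 to PGM1 ratio of counts per kilobase on a log axis in each of the 27 libraries, by carbon source and strain; points are libraries, short bars group means (n = 3) and the dashed line equal levels. BY4741 moves from near 1 in glucose to 6.57 in galactose, while LCY001 moves from 3.00 to 2.00.

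The summed level of both genes, in CPM per kilobase, stands for the total phosphoglucomutase transcript. In glucose it averaged 237 in BY4741, 466 in LCY001 and 479 in LCY002, and the LCY001 and LCY002 libraries overlapped. In galactose it averaged 641, 249 and 806, and in ethanol/glycerol 174, 157 and 443. The sum was lower in ethanol/glycerol than in galactose (log2 difference -1.13, exact permutation p = 0.00025, adjusted p = 0.00188) and than in glucose (-0.71, exact permutation p = 0.00075, adjusted p = 0.00375). Galactose against glucose gave 0.42 (exact permutation p = 0.138), with 1.44 in BY4741, 0.75 in LCY002 and -0.92 in LCY001. LCY002 exceeded BY4741 by 0.90 (exact permutation p = 0.00025, adjusted p = 0.00188) and LCY001 by 1.08 (exact permutation p = 0.00175, adjusted p = 0.00656). The second of these was made up of 1.71 in galactose, 1.50 in ethanol/glycerol and 0.04 in glucose. LCY001 against BY4741 gave -0.19 (exact permutation p = 0.525).

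Genes on both sides of the phosphoglucomutase step were read from lists of pathway members. The 7 galactose genes (GAL1, GAL2, GAL3, GAL4, GAL7, GAL10 and GAL80) are all on the array. In galactose against glucose all 7 rose in each strain, with median log2 fold changes of 9.11 in BY4741, 8.15 in LCY001 and 7.81 in LCY002, while 33.9%, 31.1% and 33.7% of all genes were called higher. The galactokinase GAL1 rose in LCY001 too, by 9.54, in the strain where PGM2 was lower in galactose. In LCY001 against BY4741 in galactose 6 of the 7 were lower, with a median of -0.32, while 18.2% of all genes were called lower. GAL1 was at -0.32, GAL7, the uridylyltransferase, at -0.41, GAL10, the epimerase, at -0.49 and the permease GAL2 at -0.77, all smaller in size than the -1.75 of PGM2. In LCY002 against LCY001 all 7 rose on each carbon source. The medians were 0.76 in galactose, 2.2 in ethanol/glycerol and 1.69 in glucose. The shares of all genes called higher were 20.2%, 29.4% and 28.5% in that order.

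Of 8 enzymes that make or use glucose phosphates, 6 rose and 1 fell in LCY001 against BY4741 in glucose. There 27.6% of all genes were called higher and 27.8% lower. In galactose 6 fell and 0 rose, where 18.2% of all genes were called lower. The hexokinase HXK1 was at 1.75 in glucose and -1.01 in galactose, and the glucokinase GLK1 at 0.95 and -0.93. HXK2, the main hexokinase in glucose, was at 0.01, not called, and -0.50, and PGI1, which isomerises glucose 6-phosphate, at -0.26 and -0.05, the second not called. UGP1, the next enzyme after phosphoglucomutase toward UDP-glucose, stood in glucose at 446 ± 7.34 CPM (SD, n = 3) in BY4741 and 718 ± 44.4 CPM in LCY001 (0.69). In galactose it stood at 580 ± 19.4 and 381 ± 21.4 CPM (-0.61). UGP1 is not on the array, and in LCY002 in glucose it was at 299 ± 0.214 CPM, -1.26 against LCY001. ZWF1, which takes glucose 6-phosphate into the pentose phosphate pathway, was at 0.33 and -0.17 in LCY001 against BY4741 in glucose and galactose.

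Between strains, the other sugar phosphate mutases lay between -0.37 and 0.29 on the log2 scale on every carbon source. PGM3 was at 66.6 ± 3.83 CPM in BY4741 and 81.5 ± 4.73 CPM in LCY001 in glucose (log2 fold change 0.29, called). PCM1, a phosphoacetylglucosamine mutase that feeds chitin synthesis, was at 0.02 and not called, and SEC53, a phosphomannomutase of protein glycosylation, was at -0.28 and called. In galactose, LCY001 against BY4741 gave -0.09 for PGM3 and 0.07 for PCM1, both not called, and -0.19 for SEC53, called. In LCY002 against LCY001 the 3 lay between -0.37 and 0.22 over the carbon sources. Between carbon sources they moved more, and in ethanol/glycerol against glucose SEC53 was at -0.91, -0.69 and -0.99 and PCM1 at -0.57, -0.58 and -0.42 in BY4741, LCY001 and LCY002, all called. PGM3 was at 0.18 and 0.32 in BY4741 and LCY002, called, and at -0.09 in LCY001, not called.

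As a set, the 5 genes that make or use UDP-glucose did not share a direction with PGM2. UGP1 among them had the sign of PGM2 in LCY001 against BY4741 on each carbon source, with PGM2 not called in ethanol/glycerol. In LCY001 against BY4741 in glucose 2 of them rose and 0 fell (median -0.06, with 27.6% of all genes higher), namely UGP1 and, at 0.11, the sterol glucosyltransferase gene ATG26. In galactose 1 rose, the glucan synthase gene FKS1 at 0.22, and 1 fell, UGP1 (median -0.04, with 20.7% of all genes higher and 18.2% lower). In ethanol/glycerol 0 rose and 1 fell, UGP1 at -0.28 (4.92% of all genes lower). In LCY002 against LCY001 in glucose 1 rose and 2 fell (28.5% of all genes higher and 25.3% lower). The 1 that rose was the glucan synthase gene GSC2, at 0.84, and UGP1 had the larger fall. In galactose 1 rose and 2 fell (20.2% of all genes higher and 18.1% lower), with FKS1 and ALG5, a glucosyltransferase gene of protein glycosylation, at -0.22 each. In ethanol/glycerol 2 rose and 2 fell (29.4% of all genes higher and 30.4% lower), with ATG26 at 0.47 and ALG5 at -0.38.

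Of 14 glycogen and trehalose genes, 13 rose and 0 fell in LCY001 against BY4741 in glucose, with a median log2 fold change of 1.18, while 27.6% of all genes were called higher. In galactose 0 rose and 12 fell, with a median of -1.06, while 18.2% of all genes were called lower. In ethanol/glycerol 0 rose and 1 fell, with a median of -0.12 and 4.92% of all genes called lower. The glycogen branching enzyme GLC3 stood in glucose at 177 ± 16.8 CPM in BY4741 and 533 ± 53.1 CPM in LCY001 (1.59 ± 0.16). In galactose the values were 663 ± 13.2 and 181 ± 59.8 CPM (-1.87 ± 0.16). GSY1, a glycogen synthase, was at 1.60 in glucose, and TSL1, a subunit of trehalose synthase, at -1.84 in galactose. The glycogen phosphorylase GPH1, which releases glucose 1-phosphate, was at 1.52 and -1.39.

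Of 15 general stress genes, 15 rose in LCY001 against BY4741 in glucose (median 1.09, 27.6% of all genes higher) and 13 fell in galactose (median -0.83, 18.2% of all genes lower), with 0 in the other direction each time. In ethanol/glycerol 3 fell and 0 rose (median -0.15, 4.92% of all genes lower). In glucose the listed gene DDR2 was at 1.88 ± 0.17 and the chaperone gene HSP78 at 1.33. In galactose the catalase gene CTT1 was at -1.99 ± 0.18 and the disaggregase gene HSP104 at -1.79 ± 0.09. The summed level of the stress list was 2645 to 2863 CPM in BY4741 and 4833 to 5108 CPM in LCY001 in glucose. In galactose it was 3650 to 3906 CPM in BY4741 and 2024, 2331 and 1927 CPM in LCY001, where replicate 2 was again the highest library, as it was for PGM2. PGM2 moved with both lists in these comparisons, and their part in its change was not tested.

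In LCY002 against LCY001 these lists turned. In glucose 14 of 14 glycogen and trehalose genes fell (median -1.48, 25.3% of all genes lower) and 14 of 15 stress genes fell and 1 rose (median -1.23). TPS1, a trehalose synthase gene, had the largest value at -3.35 ± 1.06, but its libraries within a group differed by up to 9.63-fold. GLC3 was at -2.42 ± 0.17 and CTT1 at -2.13 ± 0.18. In galactose 12 of 14 and 15 of 15 rose (medians 0.73 and 0.99, 20.2% of all genes higher). In ethanol/glycerol 12 of 14 rose and 0 fell in the first list (median 0.53), and 8 rose and 2 fell in the second (median 0.34), while 29.4% of all genes were called higher and 30.4% lower. PGM2 had the sign of both medians on each carbon source, and PGM1 did not in glucose.

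**Figure D4:**
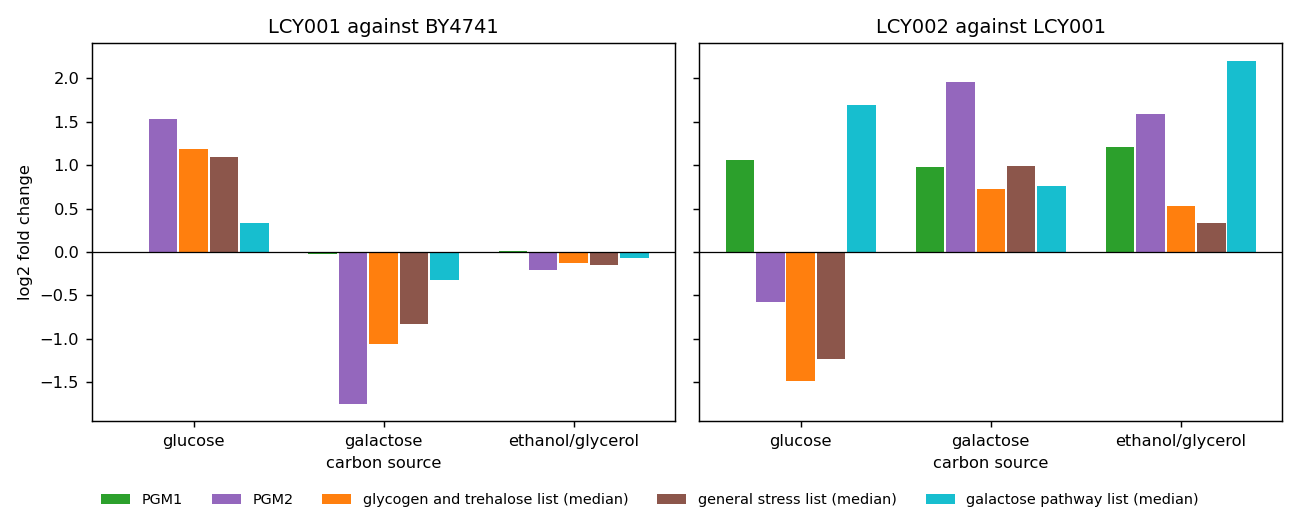
Log2 fold changes of PGM1 and PGM2 beside the median log2 fold change of 3 gene lists, by carbon source, for LCY001 against BY4741 (left) and LCY002 against LCY001 (right). PGM2, the glycogen and trehalose list (medians 1.18 and -1.06) and the stress list (1.09 and -0.83) lie on the same side of 0 in LCY001 in glucose and galactose, where PGM1 is at 0.00 and -0.03.

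Galactose against glucose raised 13 of 14 glycogen and trehalose genes (median 0.96) and 12 of 15 stress genes (median 0.61, 1 lower) in BY4741, with 33.9% of all genes higher and 31.7% lower, beside PGM2 at 2.2. In LCY001 the same contrast gave 0 higher and 13 lower of 14 (median -1.02) and 15 of 15 lower (median -1.03, with 28.3% of all genes lower), beside PGM2 at -1.08. In LCY002 it gave 13 of 14 higher (median 1.01) and 14 of 15 higher (median 0.78, with 33.7% of all genes higher), beside PGM2 at 1.45. PGM1 was lower in galactose in all 3 strains.

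In ethanol/glycerol against galactose the stress list and PGM2 parted. Against glucose, under TMM scaling, both list medians had the sign of the PGM2 value in each strain, with PGM2 not called in BY4741. In LCY001 the stress list had no clear direction, with a median of -0.05 and 6 members higher and 6 lower. Scaled by total counts, that median was 0.07, the sign opposite to PGM2. Against galactose the stress list had 10 members higher and 4 lower in BY4741 (median 0.65), 14 and 0 in LCY001 (1.52) and 11 and 3 in LCY002 (0.42), while PGM2 was at -2.07, -0.53 and -0.89. The glycogen and trehalose list had 3 higher and 9 lower in BY4741 (median -0.67), 9 and 3 in LCY001 (0.42) and 5 and 4 in LCY002 (0.11). Over all genes 37.2%, 35.3% and 36.6% were called higher and 36%, 36.3% and 40.4% lower. Against glucose the stress list had 11 higher and 0 lower in BY4741 (median 1.37), 6 and 6 in LCY001 (-0.05) and 14 and 0 in LCY002 (1.28). The glycogen and trehalose list had 9 and 3 (0.72), 3 and 10 (-0.81) and 12 and 0 (1.30), beside PGM2 at 0.12 (not called), -1.61 and 0.56. Over all genes 43.7%, 40.2% and 43.2% were called higher and 37.7%, 37.9% and 40.4% lower.

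Likeness over the 9 group means of log2 CPM was described by Pearson's r among 5434 genes with a mean of at least 5 CPM, with no test, since the groups share strains, media and the array. The genes most like PGM1 were IES6 (0.98), HXK2 (0.974), FOL2 (0.972), ERG2 (0.966) and TPI1 (0.963), of which HXK2, ERG2 and TPI1 are array genes. Those most like PGM2 were YBR284W (0.974), HXK1 (0.948), CST6 (0.898), PNG1 (0.890) and HXT11 (0.874), of which HXK1 is an array gene. PGM1 and PGM2 themselves gave 0.498. Pearson's r takes no account of the size of a change. The group means of IES6 ran only from 30.8 to 48.0 CPM and those of YBR284W from 8.07 to 14.3 CPM. HXK2 ran from 514 to 4309 CPM and HXK1 from 411 to 3932 CPM.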

How the data were processed

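Messenger RNA of 27 libraries was measured in 9 groups of 3, and groups were taken from the labelled strain and carbon source, with GE in the titles read as ethanol/glycerol by elimination. The deposited values are expected counts per gene, estimates that need not be whole, and the submitters' processing notes name RSEM 1.2.8, HISAT2 2.1.0, Bowtie2 2.2.5 and build R64. The deposited FPKM values, which scale fragments by gene length and library size, served only as an alternative, and the deposited TPM values, scaled to a common total per library by the authors per the file headers, were not tested. The strand setting, and whether the plasmid sequence was part of the reference, are not given in the sources used here.

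Of 5995 identifiers 5980 matched the R64 annotation and 15 did not. Expected counts were rounded, and edgeR 4.0.16 (R 4.3.3) supplied the quasi-likelihood F test (TMM scaling, filterByExpr, robust fit, 1 mean per group, all 27 libraries), which kept 5692 genes and both isozymes. P-values were adjusted by Benjamini-Hochberg over all genes within a comparison and called below 0.05. The biological coefficient of variation was 0.0527. Ratios and sums of the isozymes used counts per kilobase and exact permutation or sign-flip tests over all arrangements (Python 3.11.15). Coding sequences were aligned with Biopython 1.88. The tests were checked on simulated data.

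None of the 27 replicate pairs agreed within sampling noise (chi-square of 3.38 to 20.3 per degree of freedom). Replicates come from separate colonies per the labels, and p-values measure the spread between them. Labels reuse the numbers 1, 2 and 3, but in 0 of 36 pairs of groups did every same-numbered pair of libraries correlate above 0.1 (range -0.31 to 0.25), so no pairing entered. Counting floors cover counting error only. Genes other than the isozymes were named by a rule, namely all genes of the galactose, glucose phosphate and mutase lists, up to 2 called genes with the largest change of the glycogen, UDP-glucose and stress lists at 5 CPM or more, the strain and mating-type markers, and the 5 genes most like each isozyme. YPK1 and YPK2 were named outside it, after their positions were seen. The isozymes and the lists were chosen with earlier results of these data known. Alternatives were RLE factors, total counts, TMM without the array genes, no filter, DESeq2 1.42.0, only the libraries compared, a replicate block, deposited FPKM and leaving out each library.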

Additional observations from a re-analysis of the deposited data

Results flagged for a closer look

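The strain effect on PGM2 differed between carbon sources by edgeR's test of the difference, in log2 units and against glucose, in 5 of 6 such contrasts. For LCY002 against LCY001 it was 2.53 higher in galactose (adjusted p = 3.43e-08) and 2.16 higher in ethanol/glycerol (adjusted p = 1.32e-07). For LCY001 against BY4741 it was -3.28 in galactose (adjusted p = 1.18e-09) and -1.73 in ethanol/glycerol (adjusted p = 7.91e-06). For LCY002 against BY4741 it was -0.75 in galactose (adjusted p = 0.04), the weakest of these PGM2 differences. That call was lost in 9 of 12 fits that left out 1 library. The strain effect on PGM1 differed in 2 of 6 contrasts, both for ethanol/glycerol and both small, at 0.15 for LCY002 against LCY001 (adjusted p = 0.0225) and 0.16 for LCY002 against BY4741 (adjusted p = 0.0231). These PGM1 calls were lost in 4 and 3 of 12 such fits, in that order. Galactose minus glucose called 47.3%, 50.9% and 11.2% of all genes, in the order of strain pairs given for PGM2. Ethanol/glycerol minus glucose called 60.5%, 46% and 39.5%. Contrasts with the same libraries are not independent of each other. No explanation was tested.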

How the results depend on the processing

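Of 354 fold changes of PGM1 and PGM2 under settings other than leaving out a library, 344 kept their direction and call. Among PGM1 values near 0 that were never called, LCY001 against BY4741 in glucose became -0.013 with RLE factors and -0.013 with DESeq2. With total counts it became 0.022 in galactose, -0.0016 in ethanol/glycerol and -0.064 for ethanol/glycerol minus glucose. With only the libraries compared, PGM2 in ethanol/glycerol against galactose in LCY001 was -0.51 (adjusted p = 0.144). PGM1 in LCY002 against BY4741 was then -0.17 for galactose minus glucose (adjusted p = 0.0469, now called) and 0.13 for ethanol/glycerol minus glucose (adjusted p = 0.0724), and the second was 0.15 with total counts (adjusted p = 0.0519). The causes were not tested.

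The replicate numbers did not pair the libraries by the correlation check, so the replicate block is only an alternative. With the replicate block, PGM2 in LCY002 against BY4741 for galactose minus glucose was -0.75 (adjusted p = 0.0587). The isozyme ratio with the block was 1.35 for galactose against glucose and 1.12 for ethanol/glycerol against glucose (exact permutation, adjusted p = 0.0659 each). The block changed no other call of the isozymes.

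Leaving out single libraries kept 335 of 360 fold changes. PGM1 in LCY001 against BY4741 ran from -0.0027 to 0.014 in glucose, -0.063 to 0.0082 in galactose and -0.0047 to 0.030 in ethanol/glycerol, and from -0.068 to 0.0057 and -0.0096 to 0.025 for galactose and ethanol/glycerol minus glucose. PGM2 in ethanol/glycerol against galactose in LCY001 ran from -0.67 to -0.22. For ethanol/glycerol minus glucose PGM1 ran from 0.13 to 0.19 in LCY002 against LCY001 and 0.14 to 0.21 against BY4741, and for galactose minus glucose PGM2 ran from -0.87 to -0.63 against BY4741. Leaving out a replicate number kept 23 of 45 exact tests of the ratio and the sum, which then have fewer libraries to permute. The ratio ran from 1.19 to 1.49 for galactose and 1.09 to 1.17 for ethanol/glycerol against glucose, and from -0.13 to 0.012 for LCY002 against LCY001. PGM2 against PGM1 ran from 1.78 to 1.96 in galactose and 1.62 to 1.68 in ethanol/glycerol. The sum ran from -0.73 to -0.67 for ethanol/glycerol against glucose, -1.20 to -1.04 against galactose, 1.04 to 1.14 for LCY002 against LCY001 and 0.89 to 0.90 against BY4741. Every called result of the ratio lost its call in each of the 3 fits (exact permutation or sign-flip test, adjusted p of 0.0781 to 0.139). The called sums lost theirs in 3 of 3 fits for LCY002 against LCY001 and in 2 of 3 for the others.

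Total counts moved the median of all genes by over 0.1 in 7 comparisons (range -0.14 to 0.19) and 25 of 288 list counts by over 1.5 times. Called genes went from 2175 to 3309 in LCY002 against LCY001 in galactose under total counts. In LCY001 against BY4741 in ethanol/glycerol they went from 655 to 257 with only the libraries compared, and from 394 to 1030 without single libraries. RNA levels were measured here, not enzyme activity, and depth did not limit either isozyme.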

Other observations

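The genes beside the isozymes form a pair of their own, since YPK1 lies next to PGM1, 453 bases away, and YPK2 next to PGM2, 443 bases away. They encode related protein kinases and were looked at after these positions had been seen. YPK2 averaged 93.6 ± 4.8 CPM (SD, n = 3) in BY4741, 186 ± 12.8 in LCY001 and 90.1 ± 6.2 in LCY002 in glucose. In galactose it averaged 181 ± 11.7, 88.4 ± 10.3 and 209 ± 12.6 CPM in the same order. YPK2 was thus the highest in LCY001 in glucose and the lowest there in galactose, the place LCY001 also had for PGM2. In glucose the other strains were ordered differently, since LCY002 exceeded BY4741 for PGM2 and not for YPK2. Its log2 fold changes in LCY001 against BY4741 were 0.99 in glucose and -1.03 in galactose, both called by edgeR, and 0.01 in ethanol/glycerol, not called. YPK1 gave 0.10, called, and 0.07 and -0.07, not called. In LCY002 against LCY001, where YPK2 is not an array gene, it gave -1.05 in glucose, 0.61 in ethanol/glycerol and 1.24 with galactose, and YPK1 -0.31, 0.21 and -0.18, all called.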
